A study of Caenorhabditis elegans with 2 samples.

Results

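The regions described here are candidates for tagged PROS-1 signal inside protein-coding genes, shortly upstream of a second, internal transcript start of the same gene. They come from a list that includes background. They were selected on the pooled signal value and on position. A region counted when it lay on an autosome, had a pooled signal value of 15 or more, and had its summit in a protein-coding gene body within 1000 bp upstream of an annotated internal start of that gene. In ash-2 the start was instead the gene's outermost protein-coding one. There were 165 such regions, out of 2117 autosomal regions at that signal value, 24460 autosomal candidates and 30000 candidates in all. They lay in 152 genes, of which 140 held 1 region, 11 held 2 and 1 (sax-7) held 3. Because the signal value chose the regions, their strength is given as a description, and no test was made on it.

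Bound DNA was recovered by chromatin immunoprecipitation and sequenced (ChIP-seq) from whole late embryos of Caenorhabditis elegans with both sexes pooled. The strain was OP500, which carries the integrated transgene wgIs500 with eGFP-tagged pros-1 in an unc-119(tm4063) III background, and both samples shared that genotype. There was 1 group of 2 biological replicates, so no conditions were compared. The antibody is labelled as pros-1, no driver of the transgene is stated in the labels, and 1 strain and whole animals of many cell types limit what a region says about any 1 cell type.

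PROS-1 is a Prospero-type homeodomain protein that regulates transcription, and in the worm it has been studied mainly in glial cells and the excretory canal. Many genes have more than 1 promoter, and an internal promoter gives a transcript that begins further downstream, often encoding a protein without its first part. In C. elegans most transcripts receive a spliced leader, so an annotated start is often the trans-splice site, and the place where transcription begins can lie upstream of it. The annotated starts used here are therefore landmarks and not measured initiation sites.

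The sequences around the strongest summits are shown because they are the DNA itself at the points of highest signal. Each line gives 50 bp on either side of a summit, read on the strand of the gene from the RefSeq genome sequence of WBcel235 (ce11). Capitals mark GAGAGAG, the GC-box GGGCGG, the Prospero half-site AAGACG or AAGGCG, and GAGACG, each searched on both strands, so that a word on the other strand is also in capitals in its reverse complement. The words may overlap, and GAGACG was added after the sequences had been seen. These are the 10 strongest regions on chromosomes II to V whose window touches no annotated untranslated part of an exon.
zfp-1 (chrIII:8802089-8802189, plus strand): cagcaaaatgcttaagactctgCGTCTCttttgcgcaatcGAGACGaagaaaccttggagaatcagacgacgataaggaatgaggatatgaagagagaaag
drap-1 (chrV:9731085-9731185, plus strand): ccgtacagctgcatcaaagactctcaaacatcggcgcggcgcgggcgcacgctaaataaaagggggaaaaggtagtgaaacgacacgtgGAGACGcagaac
pqn-87 (chrII:12222700-12222800, minus strand): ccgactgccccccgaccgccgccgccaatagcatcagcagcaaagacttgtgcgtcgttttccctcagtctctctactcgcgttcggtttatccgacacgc
T28B11.1 (chrV:10715887-10715987, minus strand): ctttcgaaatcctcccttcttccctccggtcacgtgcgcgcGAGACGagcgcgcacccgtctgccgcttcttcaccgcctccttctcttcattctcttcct
T24B8.3 (chrII:9060496-9060596, minus strand): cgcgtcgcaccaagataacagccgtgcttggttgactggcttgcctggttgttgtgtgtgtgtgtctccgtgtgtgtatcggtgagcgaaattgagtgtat
miz-1 (chrIV:10821740-10821840, plus strand): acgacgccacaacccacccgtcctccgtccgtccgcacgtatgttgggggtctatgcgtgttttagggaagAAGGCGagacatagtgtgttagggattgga
nurf-1 (chrII:14405287-14405387, plus strand): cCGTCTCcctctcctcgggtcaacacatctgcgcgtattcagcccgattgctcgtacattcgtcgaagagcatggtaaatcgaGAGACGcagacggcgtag
crh-2 (chrII:5181616-5181716, minus strand): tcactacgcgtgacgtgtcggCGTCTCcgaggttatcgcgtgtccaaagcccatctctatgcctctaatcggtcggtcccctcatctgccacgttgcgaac
C33A12.3 (chrIV:9511462-9511562, minus strand): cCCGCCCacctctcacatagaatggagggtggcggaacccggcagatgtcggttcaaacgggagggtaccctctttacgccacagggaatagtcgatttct
F40F11.3 (chrIV:11593572-11593672, minus strand): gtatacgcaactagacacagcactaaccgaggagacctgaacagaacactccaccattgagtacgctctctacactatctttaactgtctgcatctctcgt
The windows had little in common by eye beyond GAGACG, which stood in zfp-1, drap-1, T28B11.1, nurf-1 and crh-2. In zfp-1 and nurf-1 it occurred on both strands. The GA repeat GAGAGAG was in none of these 10 windows, and the 3 strongest windows that hold it under the same limits of chromosome and untranslated parts, chosen after values were seen, are the following. Stronger regions with the word, among them Y43F8B.2 and hmg-1.2, fall outside those limits.
arf-1 (chrIII:5715673-5715773, plus strand): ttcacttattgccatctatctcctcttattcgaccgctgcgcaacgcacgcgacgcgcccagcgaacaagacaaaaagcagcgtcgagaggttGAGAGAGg
miz-1 (second region) (chrIV:10821940-10822040, plus strand): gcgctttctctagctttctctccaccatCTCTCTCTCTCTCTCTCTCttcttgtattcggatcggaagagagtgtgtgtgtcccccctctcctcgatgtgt
lgg-2 (chrIV:10935492-10935592, minus strand): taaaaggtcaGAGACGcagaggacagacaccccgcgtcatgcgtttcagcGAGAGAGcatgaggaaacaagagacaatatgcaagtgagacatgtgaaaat
The second miz-1 window holds an unbroken CT run in the gene's direction, and the lgg-2 window holds GAGACG beside its GA repeat.

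The pooled signal value is the authors' score of a region relative to the control, with no stated scale, and here it serves to order and describe regions within a list. It ran from 15.05 to 127.1 over the 165 regions, with quartiles of 16.5, 19.8 and 26.6. The median over all 2117 autosomal regions was 19.5, that of the 756 regions upstream of a gene's outermost start was 21.8, and that of the 407 intronic regions with no start within reach was 19.0. The internal promoter regions were thus spread over the range of the whole set. By chromosome there were 39 on I, 28 on II, 29 on III, 38 on IV and 31 on V. The strongest region of each autosome lay in pbrm-1, pqn-87, zfp-1, miz-1 and drap-1, in that order.

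The lowest 3 values inside the limit were 15.14 in F58B4.3, 15.10 in agl-1 and 15.05 in asd-2. The first 3 regions by the same position rule outside it were 14.97 in rab-3, 14.94 in C03H5.3 and 14.92 in frm-2. The limit therefore cuts through a continuous series of values. The position rule covers 4.55% of autosomal bases and 5.71% of the 22343 weaker autosomal candidates, against 7.79% of the 2117 regions at 15 or more.

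The authors also deposited a list thresholded by the irreproducible discovery rate (IDR), which scores how alike regions rank between lists. Presence in it does not show that the replicates agreed on a region. The vps-25 region is in it with rank 20836 in replicate 1 and 131 in replicate 2. The stronger egl-27 region is in it with no match in replicate 1. Of the 165 regions, 44 were in the IDR list (26.7%, exact 95% binomial interval 20.1 to 34.1%), beside 26.1% of all 2117 autosomal regions. The share was 33.2% upstream of a gene start and 25.3% in introns with no start within reach. The IDR list, the replicate lists and the pooled list come from the same reads, so none of them is independent of the choice of regions. Among the 165, the IDR list was a cut on the pooled signal value. The lowest of its 44 regions had 26.43, and the highest of the others had 26.06. Shares of the 165 in the IDR list, here and below, therefore restate the value that chose the regions. Intervals here cover counting error over regions only, and the depth of the samples is unknown because no read totals were used.

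The replicate lists held these regions unequally. A summit within 100 bp in both replicate lists was found for 97 regions (58.8%, interval 50.9 to 66.4%), beside 61.7% of all 2117. Replicate 2 alone matched 60 regions, replicate 1 alone 6, and 2 regions (zip-2 and teg-1) matched neither. Replicate lists include background, so a match can be a weak one. Among as many of the strongest candidates of each replicate as the pooled list holds at 15 or more, autosomes and X together (2703), 42 regions were present in both (25.5%), beside 23.2% of all 2117. Over the 103 regions matched in replicate 1, the signal value there ran from 2.12 to 30.5 with a median of 6.47. Over the 157 matched in replicate 2, it ran from 6.17 to 99.0 with a median of 15.6. Unmatched regions have no value in these medians. Over the 97 regions matched in both, the Spearman correlation of the replicates' signal values was 0.350, and over all 1307 such regions it was 0.278. These points share their libraries and were selected on the pooled signal. Of the 44 IDR regions, 37 were matched in both replicates, and of the other 121, 60 were.

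**Figure D1:**
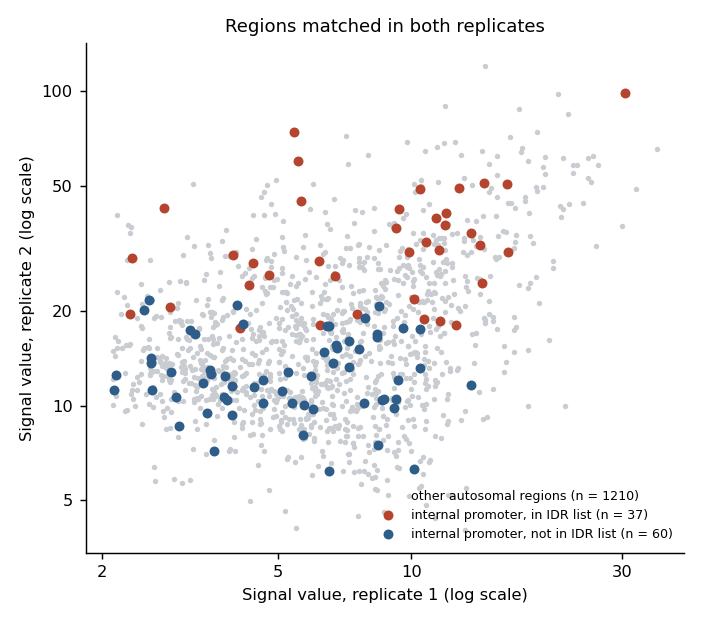
Signal value of each region in replicate 1 (x axis) and replicate 2 (y axis), both on log scales, for regions matched in both replicates: 97 internal promoter regions (red in the IDR list, blue not) and 1210 other autosomal regions (grey). The zfp-1 region stands at 30.5 and 99.0, and most regions outside the IDR list lie at lower values in replicate 2.

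The composition of the set differed between the replicate lists. With the 2117 strongest autosomal candidates of replicate 1 in place of the pooled regions, the same position rule gave 151 regions, of which 10.6% held GAGAGAG and the median GC content was 42.6%. With as many from replicate 2 it gave 171 regions, 20.5% and 49.5%. The pooled values, 20% and 48.5%, were nearer to those of replicate 2.

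The position of the summits was mostly intronic. Of the 165 summits, 122 lay in introns (73.9%, interval 66.5 to 80.5%), 31 in 5' untranslated parts of exons, 11 in coding exons and none in a 3' untranslated part, where 0 of 165 allows up to 2.21% by the exact interval. The remaining summit, in ash-2, lay 130 bp before the gene's outermost protein-coding start, which is the start it was counted on. Over all 2117 autosomal regions 27.2% were intronic, but the position rule itself favours gene bodies. The 1275 weaker candidates that meet the same rule are the closer comparison, and of those 69.6% were intronic, 17.4% in coding exons and 11.0% in 5' untranslated parts. The intron around the summit had a median length of 2165 bp in the 127 cases where the longest spanning transcript has one there, and in 56 of these it was intron 1.

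The distance from summit to the nearest downstream internal start ran from 1 to 965 bp with a median of 271 bp. It was 100 bp or less for 40 regions, 250 bp or less for 79 and 500 bp or less for 118. From the outermost start of the gene the summits lay at a median of 2336 bp, with 103 regions over 1000 bp and 58 over 5000 bp inside. The other end was crowded, with 43 regions within 500 bp of the outermost start, where an internal start and the main promoter lie close together. Of those 43, 8 were in the IDR list and 13 also lay within 1000 bp upstream of another gene's start. Of the 64 regions between 500 and 5000 bp, 16 were in the IDR list, and of the 58 beyond 5000 bp, 20 were. The farthest was in cox-6B, a subunit of cytochrome c oxidase, 86370 bp inside an intron annotated at 86515 bp. That region also lay upstream of the starts of Y71H2AM.20 and nduc-2, and in all 25 regions lay upstream of another gene's start.

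**Figure D2:**
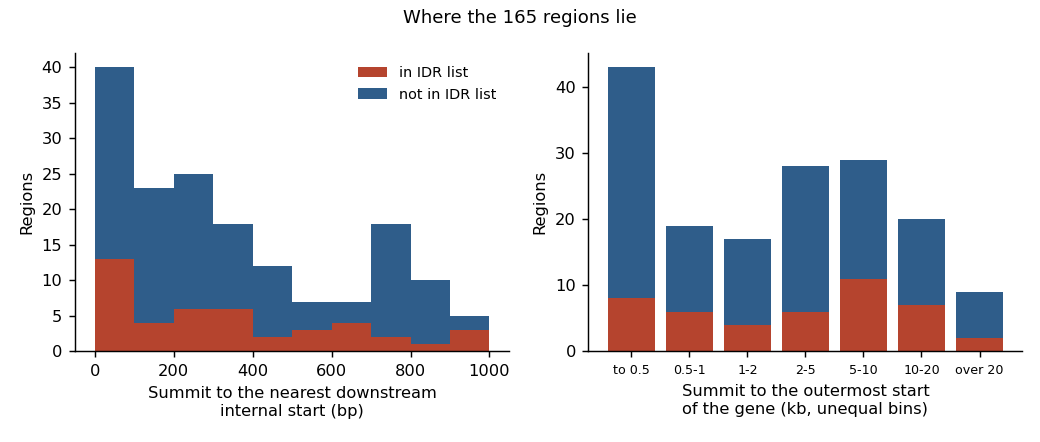
Number of regions (y axis) by distance in bp from the summit to the nearest downstream internal start (left) and by distance in kb to the outermost start of the gene in unequal bins (right), with IDR regions in red and the others in blue. The first bin on the left holds 40 regions and the first on the right 43.

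Chromatin regulators gave 5 hits among the 31 with an internal start, and 3 of the 10 strongest regions. The zfp-1 gene encodes a PHD-finger chromatin protein related to human AF10. Its region, at chrIII:8802061-8802240 in an intron of 3179 bp, had the highest pooled signal value on the autosomes, 127.1, with 30.5 in replicate 1 and 99.0 in replicate 2. It ranked 4th and 2nd in the replicates, 680 bp upstream of the internal start and 10604 bp inside the gene. The transcript from that start encodes 635 residues, against 867 for the longest product.

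The pbrm-1 gene encodes the polybromo subunit of a SWI/SNF remodelling complex. Its pooled signal value was 63.2, with 14.6 in replicate 1 and 51.1 in replicate 2, at 793 bp upstream of a start whose product has 513 of 1883 residues. The nurf-1 gene, for the large subunit of the NURF nucleosome remodelling complex, held 2 regions 5556 bp apart. The stronger one, at chrII:14405175-14405498, had 56.7 in the pool, 10.5 in replicate 1 and 49.0 in replicate 2, and stood 95 bp before a start whose product has 510 of 2199 residues. The weaker one had 17.5 in the pool, with 8.61 and 10.4 in the replicates.

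The egl-27 gene, for an MTA-like protein, also held 2 regions, 7698 bp apart. The stronger had 34.8 in the pool and 30.5 in replicate 2, and no match in replicate 1. The weaker had 15.7, with 3.94 and 9.32 in the replicates. The fifth listed chromatin gene, ash-2 (a subunit of the Trithorax-type methyltransferase complex), had 18.0 in the pool, 13.5 in replicate 2 and no match in replicate 1. Its summit lay before the gene's outermost protein-coding start and was counted on that start. The ash-2 region is thus not shown to lie at an internal start, although all totals here include it. Of the listed chromatin genes with a region, 4 had one in the IDR list.

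**Figure D3:**
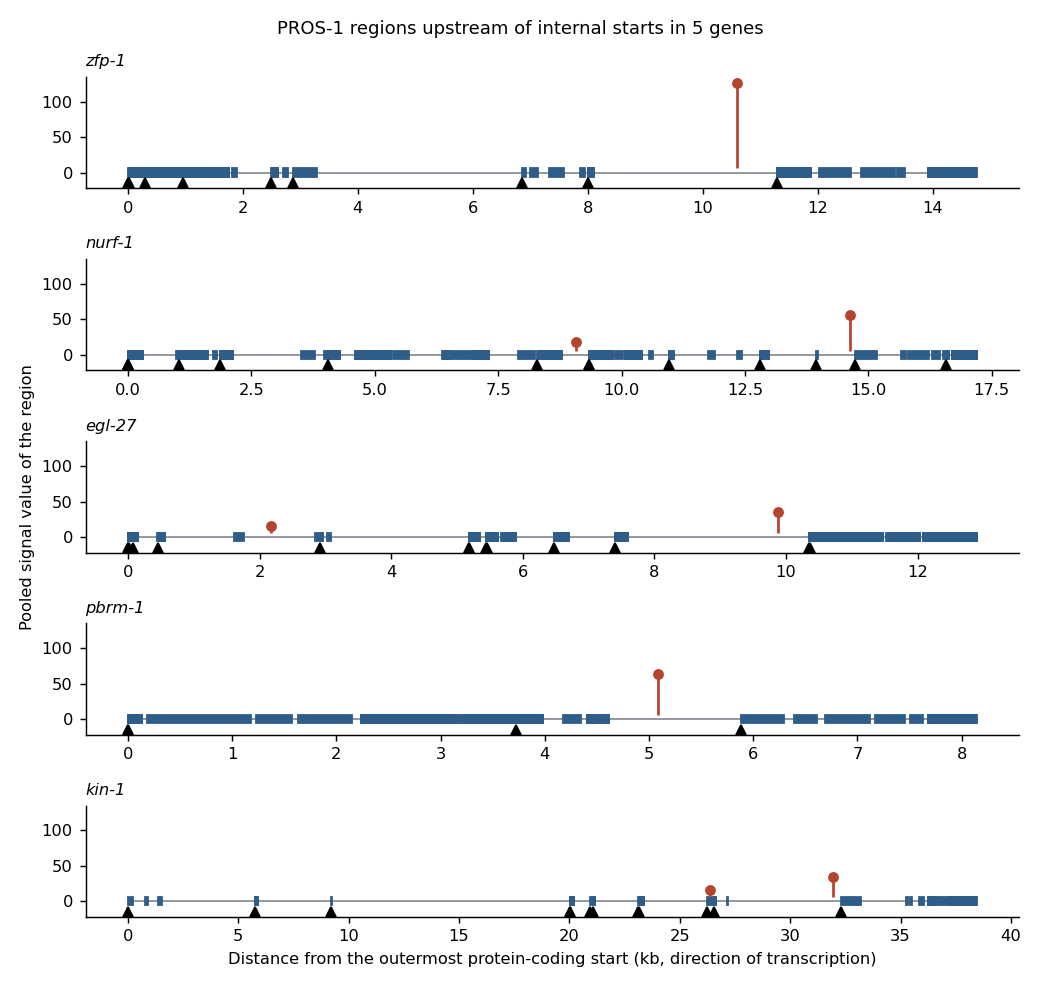
Maps of 5 genes drawn to scale in kb from the outermost protein-coding start (x axis), with exons of all transcripts as blue boxes, annotated starts as black triangles, and each internal promoter region as a red stem whose height is its pooled signal value (y axis). The zfp-1 stem reaches 127.1 at 10.6 kb, and nurf-1, egl-27 and kin-1 each carry 2 stems.

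The list of transcription factor genes gave 11 hits among its 67 genes with an internal start. It leaves out nhr-64, for example, which held a region at 31.0. The strongest listed gene was crh-2, a bZIP factor of the CREB family, with 51.3 in the pool. Its region had 13.6 in replicate 1 and 35.5 in replicate 2, and a product of 224 of 351 residues. The ceh-38 region, in a ONECUT homeobox gene, had 46.6 in the pool, with 14.3 and 32.5 in the replicates. It lay 54 bp from the outermost start, in a 5' untranslated part, and also upstream of malt-1. The lin-28 region had 45.0, with 9.88 and 30.8 in the replicates; lin-28 is an RNA-binding regulator of developmental timing that the list holds although it is not a DNA-binding factor. The hlh-30 gene, a TFEB-like regulator of autophagy genes, held 2 regions 8381 bp apart at 26.6 and 25.6. The stronger had 2.31 in replicate 1, at rank 26908, and 19.5 in replicate 2.

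The list of signalling genes gave 8 hits among 79, and it leaves out the kinase gene mnk-1, which held a region at 47.5. The gsa-1 gene, for the stimulatory G protein alpha subunit, had 40.7 in the pool and 37.3 in replicate 2, with no match in replicate 1. The kin-1 gene, for the catalytic subunit of protein kinase A, held 2 regions, at 34.7 and 15.96, of which the stronger had 6.19 in replicate 1 and 28.7 in replicate 2. The pde-4 gene, for a cAMP phosphodiesterase, had 34.0, with 3.95 and 30.1 in the replicates. The lit-1 gene, for the Nemo-like kinase of Wnt signalling, held 2 regions at 30.3 and 25.9.

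Listed cytoskeletal, adhesion and muscle genes gave 7 hits among 63. The sax-7 gene, for an L1CAM-type adhesion protein, held 3 regions spanning 13334 bp. The first had 45.7 in the pool, with 16.6 in replicate 1 and 30.9 in replicate 2. The others had 18.4 and 15.3, matched in replicate 2 alone; their summits lay 222 bp apart and their intervals overlap, so they are not separate observations. The anc-1 gene, for a giant nesprin-like protein that anchors nuclei, had 40.2 in the pool, with 11.5 and 31.4 in the replicates. The shc-1 gene, for an Shc-type adaptor, had 31.6 in the pool, with 4.31 in replicate 1 and 24.2 in replicate 2. The vab-10 gene, for spectraplakins, had regions at 25.04 and 16.01 in the pool.

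The remaining lists gave few hits. RNA-binding and splicing genes gave 3 among 54, which were hrpk-1 at 36.1, alg-2 at 15.9 and asd-2 at 15.05. The hrpk-1 region had 4.40 in replicate 1 and 28.5 in replicate 2. Translation and chaperone genes gave 3 among 36. Of these hsp-90 had 42.5 in the pool, with 10.8 and 33.2 in the replicates, and lay upstream of the start of C47E8.4 as well, while dnj-20 had 20.8 and unc-23 had 15.7. Neuronal and channel genes gave 1 among 72, the active zone gene cla-1, at 21.9 in the pool and 16.4 in replicate 2 with no match in replicate 1.

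Over all autosomal genes with an internal start, 152 of 4551 held a region, or 3.34%. Among listed genes the share was 16.4% for transcription factors, 16.1% for chromatin regulators, 11.1% for cytoskeleton and 10.1% for signalling. It was 8.33% for translation and chaperones, 5.56% for RNA-binding and 1.39% for neuronal genes. The share of genes with a region rose with gene length, from 1.32% of the 1137 shortest genes through 1.58% and 2.81% of the next equal groups to 7.64% of the 1138 longest. The median gene length among those with a region was 7187.5 bp, against 3497 bp for all 4551. The members of the lists that have an internal start had medians from 2914.5 bp (translation) to 10415 bp (cytoskeleton), and 9957.5 bp for neuronal genes. Genes with a region had a median of 3 annotated starts, against 2 for all 4551. The median was 3 in every list except translation and chaperones, where it was 2. All lists together gave 38 hits among 401 genes (9.48%), beside 3.34% of all 4551, which include the listed genes. The lists were chosen with earlier results of these data known, so these shares are a description only. The parts of length and of the number of starts in the shares were not tested, and no set test was made.

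**Figure D4:**
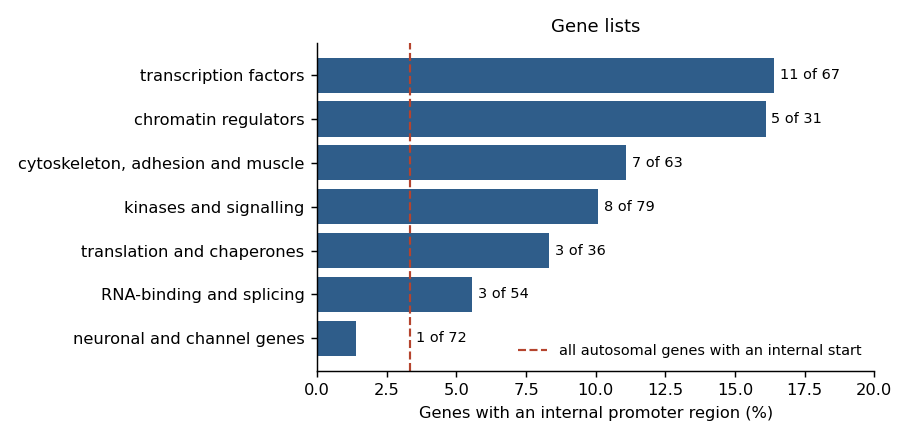
Share of autosomal genes with an internal start that hold an internal promoter region (x axis, %), for 7 gene lists, with counts at the bars and the 3.34% over all 4551 genes as a dashed line. Listed transcription factors, 11 of 67 with lin-28 counted, have the highest share, close to listed chromatin regulators at 5 of 31. Neuronal and channel genes, 1 of 72, have the lowest.

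The other strong regions lay in genes of mixed roles. The drap-1 gene, named after a corepressor of transcription, had 79.1 in the pool but 5.44 in replicate 1 and 74.0 in replicate 2, and ranked 4052nd and 12th. Its summit lay within the non-coding RNA gene F40F9.15. The T28B11.1 region had the same shape, with 61.8 in the pool, 5.54 in replicate 1 and 60.2 in replicate 2, and lay within T28B11.18. The region in arf-1, a small GTPase of the Golgi, had 46.1, with 5.62 and 44.6, and that in vps-25, an ESCRT-II subunit, had 45.7, with 2.77 and 42.4. T24B8.3 had 57.9 with 58.9 in replicate 2 and no match in replicate 1. In these 5 the value in replicate 2 was close to the pooled one, and that in replicate 1 was low or missing.

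The next regions ranked high in both lists, from 91 to 635 in replicate 1 and from 76 to 195 in replicate 2. Y43F8B.2 had 67.8, with 16.4 and 50.6 in the replicates, and pqn-87 had 61.9, with 12.9 and 49.2. The pqn-87 summit lay within the non-coding RNA gene Y57A10A.38. The mnk-1 gene, for a MAP-kinase-interacting kinase, had 47.5, with 12.0 and 41.1, and the HMG-box gene hmg-1.2 had 50.9, with 11.9 and 37.6. The hmg-1.2 summit stood 40 bp from the outermost start. C33A12.3 had 49.7, with 9.23 and 36.7, and lay 46 bp from the snoRNA gene smy-2 and upstream of C33A12.4. F40F11.3 had 48.6, with 11.4 and 39.4, and lay upstream of mig-38 and 31 bp from the non-coding RNA gene F40F11.6.

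The miz-1 gene held 2 regions, at chrIV:10821628-10821951 and chrIV:10821937-10822017, whose summits were 200 bp apart and upstream of the same internal start. The first had 57.2 in the pool and 14.0 in replicate 1 with no match in replicate 2. The second had 43.4, with 9.40 and 42.1. The intervals overlap, so they are not separate observations. The other genes with a pair of regions were T26A8.4, dmd-6, fkh-7 and pac-1, with summits 525, 992, 2199 and 18139 bp apart. In pac-1, whose stronger region had 27.7 and the weaker 19.7, the weaker one stood 32 bp from the outermost start. The pros-1 gene itself held no internal promoter region. It has 1 annotated start, and its 2 regions at 15 or more, 46.7 and 27.5, lay downstream of it. The strain also carries tagged pros-1 in a transgene, and the part of the transgene in these 2 values was not tested.

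Taken over the 165 regions, the product of the internal start had a median of 87.8% of the residues of the gene's longest product. It had the same length in 47 regions and was shorter in 118, with 80 at 90% or more, 61 from 50% to under 90%, and 24 below 50%. The median fell from 99.1% for regions within 500 bp of the outermost start to 68.7% for those over 5000 bp inside. This follows from where the starts lie and says nothing of which transcripts were made, since RNA was not measured. Of the internal starts, 94 lay inside an exon of another transcript, and 55 coincided with the first coding base, as in models that have no annotated leader.

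Sequence was not used to choose the regions. The median GC content of the windows was 48.5% (mean 48.6 ± 7.91%, SD over 165 regions), equal to 48.5% over all 2117 regions, against 39.6% in weaker candidates at the same positions and 33.7% upstream of every internal start (7957 windows, placed at the median distance of 271 bp). Those last windows are not matched to the regions in position, since 32.0% of them lay between genes and 48.8% in introns.

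The word GAGAGAG was in 33 of 165 windows (20%, interval 14.2 to 26.9%). It was in 15.6% of all 2117 windows, 14.7% upstream of gene starts, 14.5% in introns with no start in reach, 4.78% of weaker candidates and 2.35% of windows upstream of every internal start. The GC-box was in 21 windows (12.7%, interval 8.05 to 18.8%), against 7.18%, 7.41%, 5.65%, 5.18% and 2.31% in the same order. From replicate 1's list alone the GC-box share was 7.95%, and from replicate 2's 9.94%. The Prospero half-site was in 17 windows (10.3%, interval 6.12 to 16.0%), against 11.2%, 13.1%, 12.0%, 8.55% and 5.99%. The interval of that share includes the values of all strong regions and of weaker candidates.

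GAGACG was in 44 windows (26.7%), against 19.7% of all 2117, 21.4% upstream of gene starts, 16.5% in introns, 6.04% of weaker candidates and 4.16% upstream of every internal start. The longer word CTGCGTCTC, which contains its other strand, was in 22 (13.3%), against 9.73%, 10.7%, 7.86%, 1.96% and 1.26%. Both words were chosen from these sequences, so their shares are a description of them. The T run, GATA and TATA words were rarer here and in all strong regions than upstream of every internal start. The T run TTTTTTT was in 6.06% of windows, against 7.09% of all 2117 and 25.5% upstream of every internal start. The GATA word TGATAA was in 1.21%, against 2.22% and 10.9%, and the TATA word TATAAA in 1.82%, against 3.50% and 12.1%. The other words searched were each in few windows. The homeodomain word TAATTA was in 5 of 165 (3.03%), against 2.13% of all 2117 and 5.05% upstream of every internal start. In the same order, the E-box CACGTG was in 6 (3.64%), against 2.79% and 2.48%. The forkhead words TGTTTAC or TATTTAC were in 6 (3.64%), against 2.36% and 3.43%. The CRE word TGACGTCA was in 1 (0.606%), against 0.331% and 0.767%. The CA repeat CACACACA was in 8 (4.85%), against 4.02% and 0.880%. The splice acceptor word TTTTCAG was in 4 (2.42%), against 2.83% and 10.1%. The ETS word CCGGAAG was in 0, which allows up to 2.21% by the exact interval, against 0.756% and 0.691%. The IDR regions held GAGAGAG in 13 of 44 cases and the others in 20 of 121. The part of base composition in these shares was not tested.

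Of the 33 with GAGAGAG, 26 were intronic, 24 were matched in both replicates, 13 were in the IDR list and 1 had a non-coding RNA gene within 200 bp, and their median signal value was 23.6. Of the 21 with a GC-box, 17 were intronic, 12 were matched in both replicates, 5 were in the IDR list and 6 had a non-coding RNA gene within 200 bp, and their median signal value was 21.9. In 5 windows both words were present, and no difference between these groups was tested. Of the 165 windows, 89 held at least 1 of GAGAGAG, the GC-box, the half-site and GAGACG.

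**Figure D5:**
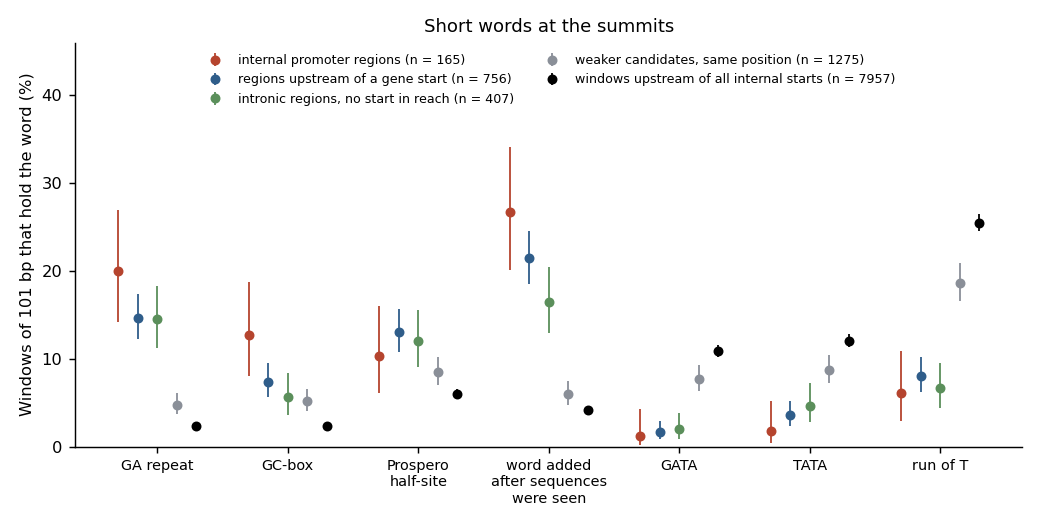
Share of windows (y axis, %) that hold each short word (x axis) with exact 95% binomial intervals, in the 165 internal promoter regions (red), 756 regions upstream of gene starts (blue), 407 intronic regions with no start within reach (green), 1275 weaker candidates at the same positions (grey) and 7957 windows upstream of every internal start (black), where the word added after the sequences were seen is GAGACG. The GA repeat stands at 20% in red and 2.35% in black, and the run of T at 6.06% and 25.5%.

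An annotated non-coding RNA gene lay within 200 bp of the summit in 25 regions (15.2%), against 21.3% of all 2117 regions, 20.9% upstream of gene starts and 27.5% in introns with no start in reach. Of the 1275 weaker candidates at the same positions, 7.45% had one. Genes of tRNA, snoRNA, snRNA, rRNA or miRNA were near 7 regions (4.24%), against 6.71%, and 14.0% in introns. Among the 10 strongest, 6 had a non-coding RNA gene within 200 bp (interval 26.2 to 87.8%), each annotated as ncRNA without a further type. Among the 20 strongest, 8 had one (interval 19.1 to 63.9%). The part of non-coding RNA genes in the signal was not tested.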

How the data were processed

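The signal value, a deposited score, the −log10 of the q-value in a further column and the offset of the summit, deposited as another column, were made by the authors from each replicate and from both pooled against a control, per the text files deposited with the lists. For the aligner, the peak caller, the control and the IDR threshold, nothing is given in the sources used here. Candidate lists held 30000 regions, background included, and the IDR list 737. The ce11 lists were used and the ce10 lists were not. Gene models came from Ensembl release 115 and sequence from RefSeq, both WBcel235, with chromosome lengths checked.

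From these files, positions, distances, matches within 100 bp, words on both strands and gene counts were computed with pandas 2.3.3, numpy 2.4.6 and scipy 1.17.1 under Python 3.11.15, and drawn with matplotlib 3.10.9. Intervals are exact binomial at 95%. The position and word searches were tested on simulated data. No test was made, since there was 1 group. Alternatives covered the signal limit, distances, replicate lists and windows. The regions and the 7 gene lists were chosen with earlier results of these data known. Genes named are those of the 20 strongest regions, up to 4 per list, pros-1, sax-7, the strongest per autosome and those at the signal limit. Further genes (ash-2, cox-6B, zip-2, teg-1, lgg-2, genes with a pair of regions and neighbouring genes) and both added words were named after values were seen.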

Additional observations from a re-analysis of the deposited data

How the results depend on the processing

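A signal limit of 10 gave 495 regions, with 8.89% in the IDR list, 39.2% matched in both replicates, 11.1% with GAGAGAG and 9.56% of genes. A limit of 20 gave 82 regions, with 53.7%, 75.6%, 82.9% in introns and 1.74% of genes. The IDR list alone gave 44 regions, with 100% by construction, 84.1% matched, 29.5% with GAGAGAG, 88.6% in introns and 0.945% of genes. An internal start within 500 bp gave 2.50% of genes, and one within 2000 bp gave 254 regions and 4.79%. Requiring 500 bp inside the gene gave 88.5% in introns and 2.42% of genes. Leaving out regions near another gene's start or a non-coding RNA gene gave 2.81% and 2.83% of genes. Matches within 50 bp, 200 bp or by any overlap were 40%, 72.1% and 73.9%. Reaching 25 or 100 bp to either side of the summit gave GAGAGAG in 13.9% and 31.5%. With 1 replicate's list left out, the IDR share ran from 18.5 to 26.9%, the share matched in the other replicate from 42.7 to 43.7% and GAGAGAG from 10.6 to 20.5%, the lower GAGAGAG and IDR values without replicate 2. Fewer bases searched and other limits change these values by construction, and other causes were not tested. The other 39 values of these results stayed within their intervals or within 1.5 times the main count.

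No paired analysis was possible because there was 1 group and no test. Depth is unknown, so absence from a replicate's list does not show absence of binding. Annotated starts stand in for measured ones, and whole embryos of 1 transgenic strain mix many cell types.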

Other observations

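On the X chromosome, which was left out by the choice of autosomes, 53 of 586 regions at a signal value of 15 or more met the same position rule (9.04%, exact 95% binomial interval 6.85 to 11.7%), against 165 of 2117 on autosomes (7.79%, interval 6.69 to 9.02%). The intervals overlap.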
